A study of Mus musculus with 12 samples.

Results

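The ES cell cycle seed family consisted of 9 microRNAs (miRNAs) among the 1042 measured. All are 3p arms, cut from the 3′ side of a hairpin precursor, of the miR-290 or the miR-302 cluster. The 5 members from the miR-290 cluster were mmu-miR-291a-3p, mmu-miR-291b-3p, mmu-miR-292-3p, mmu-miR-294-3p and mmu-miR-295-3p, and the 4 from the miR-302 cluster were mmu-miR-302a-3p, mmu-miR-302b-3p, mmu-miR-302c-3p and mmu-miR-302d-3p, written without the mouse prefix from here on. They were chosen by name, as the arms that carry a shared seed, and not by a cut on measured values, but with earlier results of these data known. All 9 belonged to the 732 miRNAs that reached 10 reads in 2 or more libraries and were tested.

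Small RNA was sequenced from 12 libraries of 5 mouse cell types to compare pluripotent cells derived by different routes with each other and with fibroblasts. There were 3 libraries of mouse embryonic fibroblasts (MEFs) and 3 of embryonic stem cells (ESCs). Induced pluripotent stem cells (iPSCs), nuclear transfer ESCs (NT-ESCs) and NT-iPSCs had 2 libraries each. Between 4863365 and 8608689 miRNA reads were recovered per library, so that 3 reads stood for 0.348 to 0.617 CPM.

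The ESCs were the line E14, of strain 129/ola, and the other 4 cell types were of the background C57B6/129SvJae F1. The iPSCs carried Oct4, Sox2, Klf4 and c-Myc on doxycycline-inducible lentiviruses. The NT-ESCs came from MEF nuclei placed in enucleated oocytes, and NT-iPSCs came from iPSC nuclei treated in the same way. All 4 pluripotent types grew on irradiated MEF feeder cells with leukaemia inhibitory factor, and no source used here states that the feeder cells were removed before RNA extraction. Replicates were separate RNA preparations of the same line, so the p-values measure the spread between preparations and not between lines. Strain and line differ between the ESCs and every reprogrammed type, and their part in any difference from ESCs cannot be told apart from that of the way the cells were made. The paper's sequencing statistics also divide the libraries. Every ESC and MEF library had fewer total reads than every reprogrammed library, and larger shares of reads without a 3′ adaptor or without an insert. Whether these sets were handled separately is not stated there. Its part in a difference of reprogrammed cells from ESCs or MEFs cannot be told apart either.

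A miRNA recognizes messenger RNAs chiefly through its seed, the bases near its 5′ end, so that miRNAs with the same seed share many predicted targets. The miR-290 and miR-302 clusters are each transcribed as a long precursor in early embryonic cells. In mouse, the miR-290 cluster is known from naive ESCs and the miR-302 cluster is better known from the later epiblast. Members of this family are known to promote passage from G1 into S phase in ESCs by repressing inhibitors of the cell cycle, such as Cdkn1a and Lats2, and to aid reprogramming of fibroblasts when added to them.

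Mature sequences are given for the 7 members with an entry in RefSeq (GRCm38.p6), because the seed defines the family. Bases 2 to 8 are in capitals, and each sequence runs 5′ to 3′ on the plus strand of the coordinates given after it.
miR-291a-3p: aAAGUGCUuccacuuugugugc
miR-291b-3p: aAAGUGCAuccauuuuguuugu
miR-294-3p: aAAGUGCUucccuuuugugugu
miR-295-3p: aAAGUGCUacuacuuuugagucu
miR-302b-3p: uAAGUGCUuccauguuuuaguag
miR-302c-3p: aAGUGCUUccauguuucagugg
miR-302d-3p: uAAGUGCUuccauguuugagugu

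In the order printed, the mature sequences lie at chr7:3218968-3218989, chr7:3219529-3219550, chr7:3220691-3220712, chr7:3220815-3220837, chr3:127545275-127545297, chr3:127545406-127545427 and chr3:127545665-127545687. In the GENCODE annotation of that build, the 5 miR-290 member hairpins lie opposite an exon of Nlrp12 and the 4 miR-302 member hairpins opposite an intron of Larp7. Both of these host positions are on the other strand, the minus strand, and the deposited table itself gives no coordinates.

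Grouped by bases 2 to 8, miR-291a-3p, miR-294-3p, miR-295-3p, miR-302b-3p and miR-302d-3p shared AAGUGCU. The seed of miR-291b-3p was AAGUGCA, with another last base. The annotated miR-302c-3p starts 1 base further in, so that its bases 2 to 8 read AGUGCUU, although the hexamer AAGUGC is present from its position 1. Of the reads on the 7 members printed, those with AAGUGCU held between 98.9% and 99.8% in every pluripotent library. This base leaves out miR-302a-3p and miR-292-3p, the latter of which held 5.95% to 7.17% of family reads per ESC library and 16.6% to 30.7% per reprogrammed library. The hexamer was at bases 2 to 7 in 8 of 1679 mouse mature miRNAs in RefSeq, or 0.476%. Outside the seed the members were less alike. Aligned on the hexamer, miR-295-3p was identical to miR-291b-3p and to miR-294-3p at 11 of 21 bases. Other pairs were closer. miR-294-3p was identical to miR-291a-3p and to miR-291b-3p at 18 of 21 bases, and miR-302b-3p shared 20 of 22 with miR-302c-3p and 19 of 22 with miR-302d-3p. Reads of such near copies could be split between them by the counting. Levels of single miR-302 members, and of miR-291a-3p, miR-291b-3p and miR-294-3p, carry that uncertainty.

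The family was close to absent from MEFs and took between 4.0% and 6.74% of miRNA reads in the pluripotent libraries. It held 0.000581%, 2.54e-05% and 3.72e-05% of miRNA reads in MEF libraries 13, 14 and 15. In ESC libraries 2, 3 and 4 the share was 4.0%, 4.63% and 5.18%. The iPSC libraries 62 and 63 had 5.14% and 6.74%, the NT-ESC libraries 71 and 72 had 6.46% and 6.35%, and the NT-iPSC libraries 51 and 52 had 5.38% and 4.76%. Both NT-ESC libraries lay above every ESC library, while the iPSC and NT-iPSC libraries overlapped the ESC libraries. The reprogrammed and ESC means were 5.81% ± 0.815 (SD, n = 6) and 4.6% ± 0.588 (SD, n = 3). Here and below, a reprogrammed n of 6 pools the iPSC, NT-ESC and NT-iPSC libraries. Its SD mixes the spread between these types with that between preparations, while the ESC SD is over preparations of 1 line. The shares of the members within the family are given after their levels.

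The miR-290 members supplied nearly all of the family's reads. The share of the miR-302 members in family reads was 1.07% ± 0.173 (SD, n = 2) for iPSCs and 0.327% ± 0.044 (SD, n = 3) for ESCs. It was lower in the nuclear transfer cells, at 0.156% ± 0.0398 for NT-ESCs and 0.164% ± 0.0276 for NT-iPSCs (SD, n = 2 each). Ranked by reads among all miRNAs, miR-295-3p stood between 9 and 19 in all 9 pluripotent libraries, whereas miR-302c-3p stood between 455 and 640.

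In MEFs, reads on the family were few and uneven. MEF library 13 held 50 member reads, 22 of them of miR-295-3p and 14 of miR-291a-3p, while libraries 14 and 15 held 2 and 3. No read of miR-291b-3p, miR-302a-3p, miR-302c-3p or miR-302d-3p was found in any MEF library, a count that allows up to 3 reads per library. Against 3 reads in each MEF library, these were at least 125-fold, 14-fold, 4.06-fold and 6.03-fold lower in MEFs than in ESCs. By limma on the deposited values with Benjamini-Hochberg adjustment, 9 of 9 members were lower in MEFs than in ESCs, against 39.9% of all tested miRNAs called lower. Each reprogrammed type likewise had 9 of 9 members higher than MEFs, where 48.6% (iPSCs), 45.9% (NT-ESCs) and 46.7% (NT-iPSCs) of tested miRNAs were called higher. Those 3 comparisons share the MEF libraries. The 4 other arms of the miR-290 cluster taken as markers of pluripotent cells (miR-290-5p, miR-290-3p, miR-293-5p and miR-293-3p) summed to at most 0.000372% of miRNA reads in MEFs and to 3.6% to 12.2% in the pluripotent libraries.

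**Figure D1:**
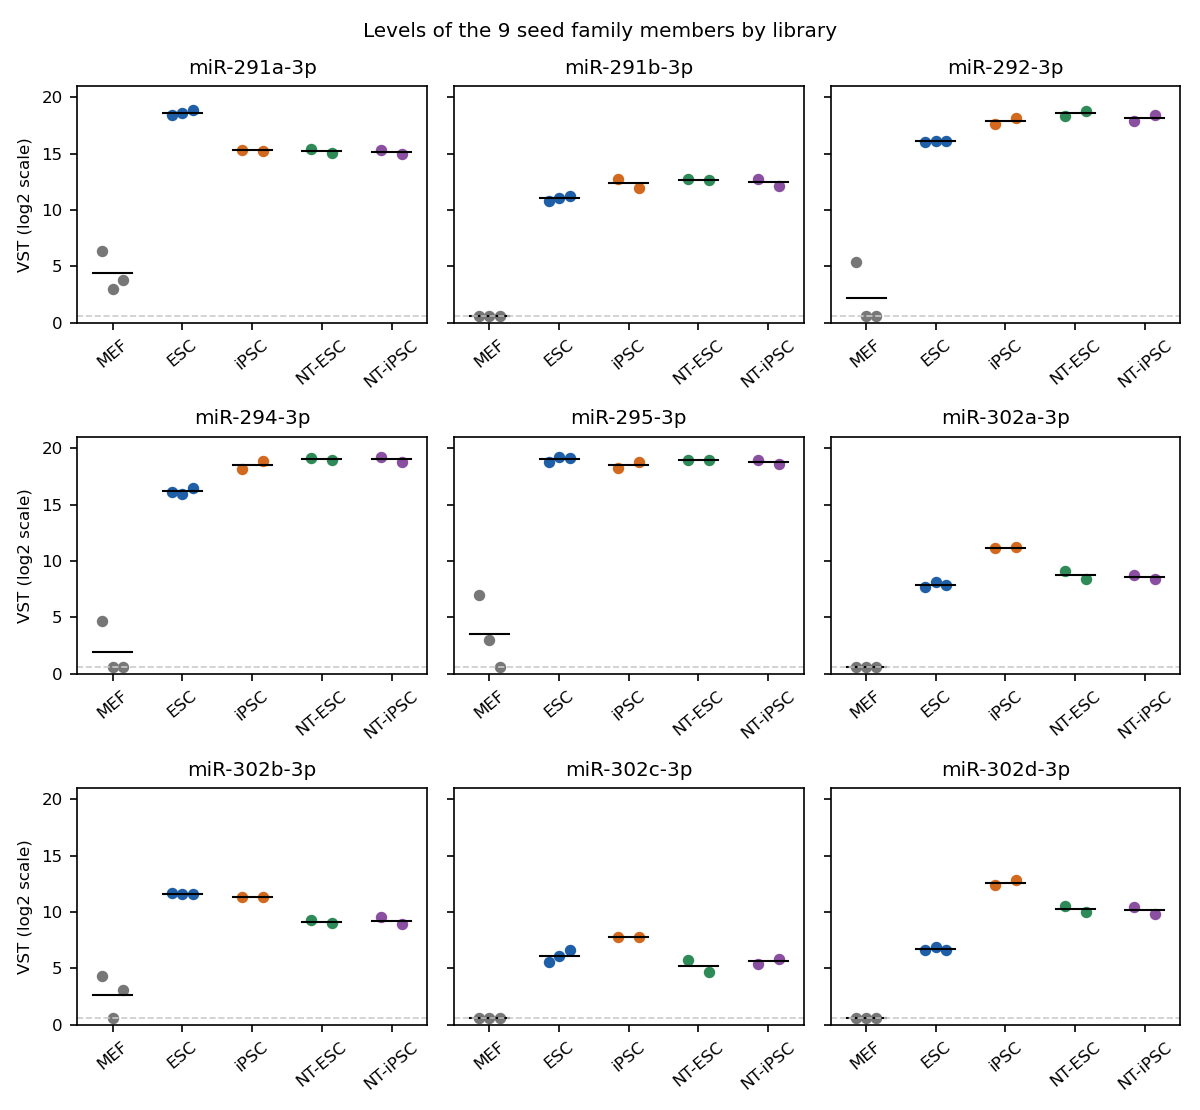
Deposited values (VST, a variance stabilised log2 scale) of the 9 members, with a point for each of the 12 libraries, a black line for the mean of each cell type and a dashed line at 0.586, the value of 0 reads. miR-291a-3p is highest in ESCs, miR-292-3p and miR-294-3p are lowest in ESCs among the pluripotent types, and the miR-302 members are highest in iPSCs except for miR-302b-3p, which is highest in ESCs.

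Among pluripotent cells the largest fall was that of miR-291a-3p, which together with miR-295-3p dominates the family in ESCs. Its normalised reads (reads divided by the size factor of the library) were 83025, 91491 and 109569 in ESC libraries 2, 3 and 4. The iPSC libraries had 9281 and 9134, the NT-ESC libraries 9780 and 7907, and the NT-iPSC libraries 9377 and 7432. Every reprogrammed library lay below every ESC library, the reprogrammed mean being 10.7-fold lower. The deposited values differed by -3.42 on the log2 scale (SE 0.55, limma, adjusted p = 1.31e-04).

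Its neighbour miR-291b-3p, a minor member with the variant seed base, went the other way. ESC libraries had 421.1, 493 and 566 normalised reads, iPSC libraries 1615 and 926.9, NT-ESC libraries 1587 and 1480, and NT-iPSC libraries 1558 and 1066. The groups did not overlap, and the reprogrammed mean was 2.78-fold higher. The log2 difference was 1.45 (SE 0.20, limma, adjusted p = 4.32e-05).

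miR-294-3p, often used as the representative member in studies of the ESC cell cycle, had the highest mean of all members in the reprogrammed cells. It had 16939, 14792 and 20448 normalised reads in ESCs. In iPSCs the values were 69358 and 112266, in NT-ESCs 131265 and 114939, and in NT-iPSCs 145692 and 103069. All 6 reprogrammed libraries exceeded all 3 ESC libraries, with means 6.48-fold apart. The log2 difference was 2.67 (SE 0.74, limma, adjusted p = 5.70e-03). Taken alone, iPSCs passed with an adjusted p of 0.042, a call that ended when any 1 ESC, iPSC, NT-ESC or NT-iPSC library was left out and without the variance trend, but held without MEFs.

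For miR-292-3p the ESC libraries were close together at 15765, 16610 and 16778 normalised reads. The iPSC libraries had 45648 and 68385, the NT-ESC libraries 77590 and 106494, and the NT-iPSC libraries 54961 and 81015. Again the groups were apart, with a reprogrammed mean 4.42-fold higher. The log2 difference of 2.09 (SE 0.86) passed the test for the reprogrammed mean (limma, adjusted p = 0.0421), while the adjusted p was 0.17 for iPSCs alone, 0.0627 for NT-ESCs alone and 0.117 for NT-iPSCs alone. The call for the reprogrammed mean ended when any 1 of these or of the ESC libraries was left out, and without the variance trend. Leaving out MEFs lowered the SE of miR-291a-3p, miR-292-3p, miR-294-3p, miR-295-3p and miR-302b-3p (the last from 0.60 to 0.15), and left that of miR-291b-3p, with no MEF read, at 0.20. In a fit of the 9 pluripotent libraries alone, chosen after seeing the data, the SE was 0.18 and miR-292-3p passed in all 3 types (limma, adjusted p 9.81e-05, 1.02e-05 and 4.03e-05).

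For miR-295-3p, the most abundant member in ESCs, no difference among the 4 pluripotent types passed the test. It had 102750, 143508 and 133850 normalised reads in ESCs. The iPSC libraries had 71862 and 107225, the NT-ESC libraries 118343 and 115742, and the NT-iPSC libraries 117969 and 93372. Values of ESC and reprogrammed libraries overlapped. The log2 difference was -0.29, with a 95% interval from -2.49 to 1.91 (limma, adjusted p = 0.792), narrowing to -0.68 to 0.10 without MEFs (adjusted p = 0.142). For iPSCs alone the difference without MEFs was -0.51, with a 95% interval from -1.02 to -0.01 (limma, adjusted p = 0.0587).

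The miR-302 members showed opposite directions among the 4 family members of their cluster. miR-302d-3p had 21.45, 27.06 and 22.77 normalised reads in ESCs. Its iPSC libraries had 1236 and 1680, its NT-ESC libraries 343.3 and 239.9, and its NT-iPSC libraries 329.9 and 211.3. It was thus among the lowest members in ESCs and the highest miR-302 member in each reprogrammed type. The reprogrammed mean was 28.3-fold higher, and the log2 difference of 4.30 (SE 0.22, limma, adjusted p = 6.48e-09) was larger than that of any other member.

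miR-302b-3p, the leading miR-302 member in ESCs, had 747.3, 727.5 and 727.5 normalised reads there. For iPSCs the values were 581.4 and 588.8, for NT-ESCs 143.5 and 119.1, and for NT-iPSCs 170.2 and 113.5. The reprogrammed libraries were all below the ESC libraries, slightly so for iPSCs. The log2 difference was -1.73 for the reprogrammed mean (SE 0.60, limma, adjusted p = 0.0191) and -0.33 for iPSCs (95% interval -2.03 to 1.38, adjusted p = 0.707). Without MEFs the iPSC interval was -0.77 to 0.11 (limma, adjusted p = 0.15), and with the iPSC and ESC libraries alone the difference passed (limma, adjusted p = 0.0469), as it did in 1 of 22 alternatives, over which the adjusted p ran from 0.0469 to 0.902. The call for the reprogrammed mean ended when any 1 ESC library was left out.

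miR-302a-3p had 48.54, 65.13 and 52.05 normalised reads in ESCs. The iPSC libraries had 524 and 542.6, the NT-ESC libraries 126.2 and 79.68, and the NT-iPSC libraries 98.22 and 77.9. All reprogrammed libraries were above the ESC libraries, those of iPSCs by the most. The log2 difference was 1.60 for the reprogrammed mean (SE 0.22, limma, adjusted p = 3.65e-05) and fell to 0.67 for NT-iPSCs (adjusted p = 0.0499). The latter call ended under trimmed mean and total read scaling, under both other read filters, and when ESC library 2 or 4 or any 1 iPSC or NT-iPSC library was left out.

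miR-302c-3p was the scarcest member, with 9, 15 and 21 reads in the ESC libraries and 6 to 17 in the 4 nuclear transfer libraries. The iPSC libraries had 69 and 68 reads. Only the iPSCs stood clear of the ESCs, by 1.68 on the log2 scale (SE 0.46, limma, adjusted p = 5.63e-03). NT-ESCs and NT-iPSCs differed from ESCs by -0.88 (95% interval -1.89 to 0.12, adjusted p = 0.0979) and -0.49 (SE 0.46, adjusted p = 0.338).

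Over the family, 7 of 9 members differed between the reprogrammed mean and ESCs, 5 of them higher and 2 lower, where 82% of all tested miRNAs were called, 44% higher and 38% lower. The libraries of 7 members did not overlap between these groups, which held for 71% of tested miRNAs. Each reprogrammed type alone had 6 of 9 members that differed from ESCs. In iPSCs 5 of the 6 were higher (75.8% of tested miRNAs called, 39.8% higher), in NT-ESCs 4 (75.8%, 39.8%) and in NT-iPSCs 4 (77.6%, 41.1%). These shares are close to those over all miRNAs. The median difference of the members from ESCs was 1.45 for the reprogrammed mean, beside 0.24 over all tested miRNAs. The comparisons against ESCs share the 3 ESC libraries. Without NT-iPSC library 52, the count for NT-iPSCs was 3.

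**Figure D2:**
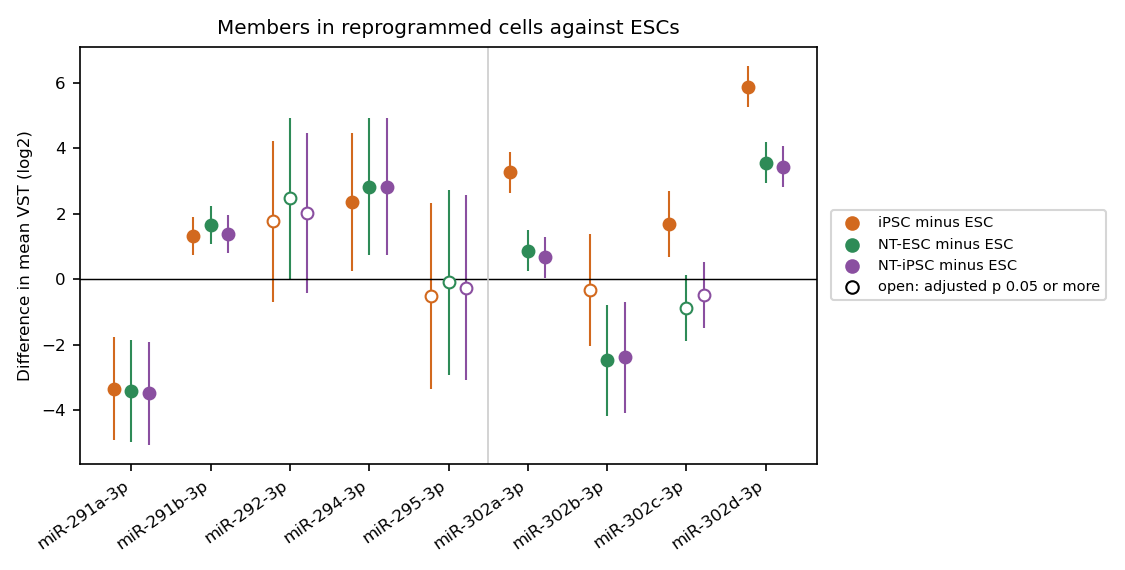
Difference in mean VST from ESCs (log2 scale) for the 9 members in iPSCs, NT-ESCs and NT-iPSCs, with 95% intervals of the limma fit over all 12 libraries. Filled points have an adjusted p under 0.05. miR-291a-3p lies between -3.49 and -3.35 in all 3 types, whereas miR-302d-3p lies at 5.89 in iPSCs and at 3.56 and 3.44 in NT-ESCs and NT-iPSCs.

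The makeup of the family differed between ESCs and reprogrammed cells. In ESCs, miR-295-3p held 49.3% ± 3.76 and miR-291a-3p 36.9% ± 2.45 (SD, n = 3) of family reads, and miR-294-3p and miR-292-3p had 6.83% ± 1.15 and 6.44% ± 0.647. In the reprogrammed libraries the leaders were miR-294-3p at 37.3% ± 3.87 and miR-295-3p at 34.7% ± 1.39 (SD, n = 6), followed by miR-292-3p at 24% ± 4.93. There miR-291a-3p held 3.05% ± 0.824. Inside the miR-302 members, miR-302b-3p held 88.5% ± 1.61 (SD, n = 3) of reads in ESCs but 25% ± 2.9 (SD, n = 6) in reprogrammed cells. The same shares of miR-302d-3p were 2.86% ± 0.337 and 54.1% ± 2.76. The share of miR-302d-3p was between 50.9% and 58.7% in every reprogrammed library, although the level of the miR-302 members differed between the reprogrammed types. Shares are given as a description, without a test.

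**Figure D3:**
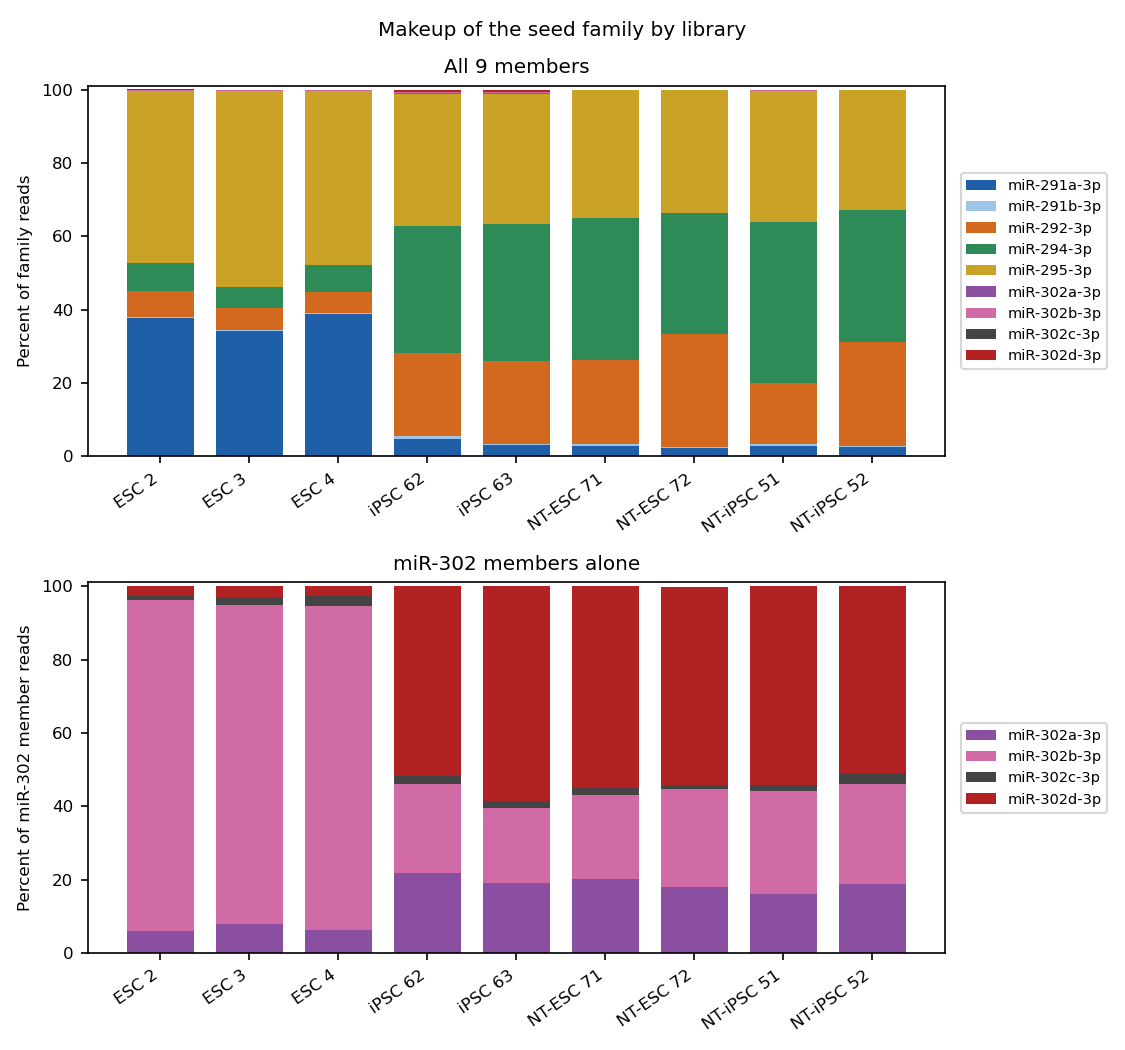
Percent of the reads of the 9 members (upper panel) and of the 4 miR-302 members (lower panel) held by each member in each of the 9 pluripotent libraries. miR-291a-3p falls from 34.2% to 38.8% of family reads in ESCs to 2.28% to 4.64% in reprogrammed cells, and miR-302d-3p takes the place of miR-302b-3p as the leading miR-302 member.

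Each member hairpin also yields a 5p arm, with another seed, and the balance of the arms was compared next. For miR-291a the 3p arm held 77.2% ± 2.68 (SD, n = 3) of the hairpin's reads in ESCs, compared with 16.1% ± 3.12 (SD, n = 6) in reprogrammed cells. The 5p arm had 29035, 25113 and 29170 normalised reads in ESCs and 37836 to 59139 in the reprogrammed libraries. The 3p arm thus led in every ESC library and the 5p arm in every reprogrammed library. The 3p minus 5p difference in VST fell by 4.17 on the log2 scale in reprogrammed cells (SE 0.39, limma, adjusted p = 3.84e-06). The 5p arm of miR-291a has bases 2 to 8 that differ from the family seed, and RefSeq gives it as follows.
miR-291a-5p: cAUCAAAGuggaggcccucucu

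The hairpin of miR-292 showed the reverse exchange. Its 3p arm held 12.5% ± 0.795 (SD, n = 3) of reads in ESCs, compared with 80.7% ± 3.42 (SD, n = 6) in reprogrammed cells. The 5p arm had 108857, 108902 and 127105 normalised reads in ESCs and 12798 to 20127 in reprogrammed libraries. Here the 5p arm led in all ESC libraries and the 3p arm in all reprogrammed libraries. The 3p minus 5p difference rose by 4.89 (SE 0.37, limma, adjusted p = 7.49e-07). RefSeq gives the 5p arm under the name miR-292a-5p, and its bases 2 to 8 are again outside the family seed.
miR-292-5p: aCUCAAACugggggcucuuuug

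In the miR-291b hairpin the 3p arm fell from 62.6% ± 3.24 (SD, n = 3) to 30.7% ± 6.6 (SD, n = 6). The 5p arm was higher by 3.39 on the log2 scale (SE 0.13, limma, adjusted p = 7.43e-10), and the 3p arm by 1.45. Such a change of leading arm between every ESC and every reprogrammed library was found in 3 of 9 member hairpins, and in 44 of 263 hairpins with both arms measured, or 16.7%. It ran from 3p to 5p in 19 of the 263 (7.22%), miR-291a and miR-291b among them, and from 5p to 3p in 25 (9.51%), among them miR-292.

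In the other hairpins the leading arm stayed the same or was unsettled. The 3p arm of miR-294 held 97.6% ± 0.167 (SD, n = 3) in ESCs, compared with 92.1% ± 1.73 (SD, n = 6) in reprogrammed cells, and that of miR-295 98.5% ± 0.245 and 89% ± 1.75. For miR-302a the 5p arm led everywhere, the 3p arm holding 21.3% ± 1.64 and 11.3% ± 3.53. The 3p arm of miR-302d held 88.7% ± 3.78 and 88% ± 1.71, the ESC value resting on 2, 5 and 2 reads of the 5p arm. No read of miR-302b-5p was found in any ESC library, against 4 to 20 reads in the reprogrammed libraries, so that the fitted arm difference for this hairpin depends on the value given to 0 reads. miR-302c rested on 1 to 4 reads of its 5p arm in ESCs.

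Over the member hairpins, 6 of 9 changed their arm balance between ESCs and the reprogrammed mean (limma, adjusted p under 0.05), 1 toward 3p and 5 toward 5p, where 79.5% of all 263 hairpins were called, 44.5% toward 3p and 35% toward 5p. Alone, iPSCs had 4 of 9 (74.9% of all hairpins called), NT-ESCs 5 (73.8%) and NT-iPSCs 4 (73.4%). The 6 include miR-302b and miR-302c, both toward 5p, with 0 reads and 1 to 4 reads of the 5p arm in the ESC libraries. miR-302b is also counted for each type alone, and miR-302c for NT-ESCs alone. In the fit without MEFs the counts were 7, 8 and 7, where 77.9%, 76.8% and 75.3% were called. Among the reprogrammed types, 0 of 9 hairpins were called in each of the 3 comparisons by limma, with 0 at an unadjusted p under 0.05, where 0.38% or fewer of all hairpins were called. In the fit without MEFs 0 were called, with 0, 3 and 1 at an unadjusted p under 0.05 for NT-ESCs against iPSCs, NT-iPSCs against iPSCs and NT-iPSCs against NT-ESCs.

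**Figure D4:**
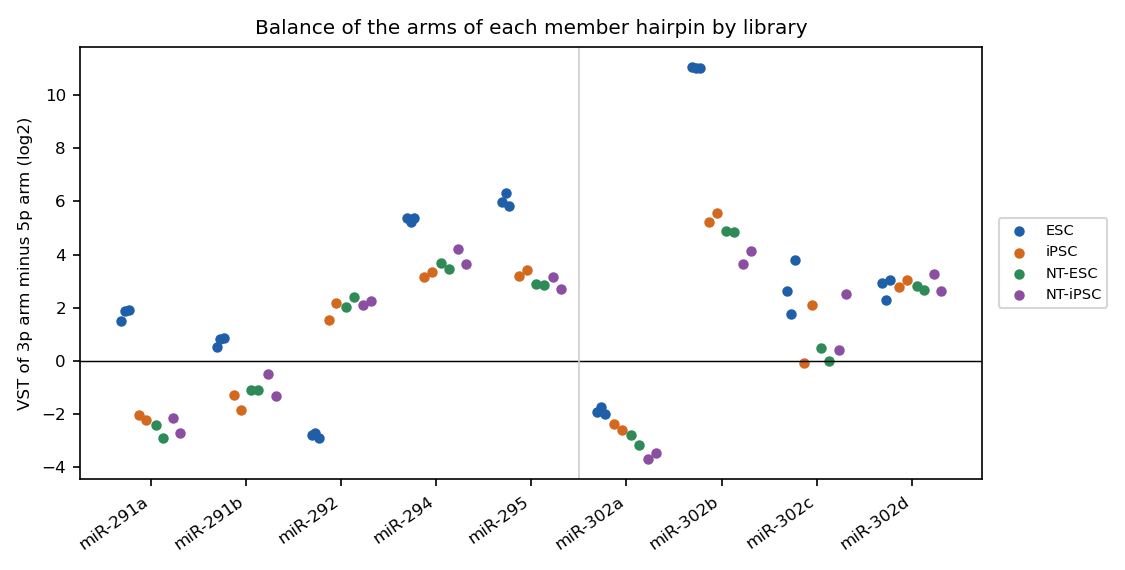
VST of the 3p arm minus that of the 5p arm (log2 scale) for the 9 member hairpins in each of the 9 pluripotent libraries, with 0 marking equal arms. Points of miR-291a and miR-291b are above 0 in ESCs and below 0 in the other types, and those of miR-292 are below 0 in ESCs and above 0 in the other types.

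The normalised reads of both arms were added in each library, and the means of their log2 values were compared without a test. Reprogrammed cells differed from ESCs by -1.14 for miR-291a and by -0.60 for miR-292, a smaller distance than that of either 3p arm. For miR-294 and miR-302d the sums differed by 2.76 and 4.35, beside 2.67 and 4.30 on the VST scale for the 3p arms alone. Neighbouring hairpins of the miR-290 cluster thus had differences on both sides of 0, with 2.51 for miR-291b and -0.14 for miR-295.

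The reprogrammed types were then compared with each other. The miR-302 members were the part of the family that separated iPSCs from both nuclear transfer types. On mean normalised reads, iPSCs exceeded NT-ESCs by 5.18-fold for miR-302a-3p, 4.46-fold for miR-302b-3p, 5.9-fold for miR-302c-3p and 5.0-fold for miR-302d-3p. They exceeded NT-iPSCs by 6.06-fold, 4.12-fold, 4.69-fold and 5.39-fold. For each of the 4 members both iPSC libraries lay above all 4 nuclear transfer libraries. Between NT-ESCs and iPSCs, miR-292-3p, miR-294-3p and miR-295-3p did not overlap either, with iPSCs lower, but they overlapped between NT-iPSCs and iPSCs. Of all tested miRNAs, 68.9% did not overlap in either direction between NT-ESCs and iPSCs and 63.1% between NT-iPSCs and iPSCs. These shares are for each pair of types and not for iPSCs against both together.

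Of the 9 members, 3 differed between NT-ESCs and iPSCs, where 25.7% of all tested miRNAs were called and 13.1% were called lower. miR-302a-3p fell by 2.40 on the log2 scale (SE 0.31, adjusted p = 4.06e-04), miR-302c-3p by 2.57 (SE 0.50, adjusted p = 4.04e-03) and miR-302d-3p by 2.33 (SE 0.32, limma, adjusted p = 5.11e-04). The same 3 were lower in NT-iPSCs than in iPSCs, by 2.60, 2.18 and 2.45 (limma, adjusted p 1.36e-04, 7.81e-03 and 2.21e-04), where 26.5% were called and 13.1% called lower. Both comparisons share the 2 iPSC libraries. miR-302b-3p differed by -2.16 and -2.07 and did not pass (limma, adjusted p 0.0852 and 0.105), but passed in the fit without MEFs (adjusted p 4.40e-04 and 2.27e-04), where 4 of 9 members were called in each, beside 31.1% and 28.6% of tested miRNAs. Without MEF library 13, 5 members passed between NT-ESCs and iPSCs, and without NT-iPSC library 51 the call of miR-302c-3p in NT-iPSCs ended.

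The miR-290 members did not pass in either comparison, but without MEF library 13 miR-292-3p was higher in NT-ESCs than in iPSCs, and was with miR-302b-3p among the 5 called there. Their differences ran from -0.07 to 0.70 for NT-ESCs against iPSCs and from -0.14 to 0.47 for NT-iPSCs against iPSCs, with intervals that reached 3.52. In the fit without MEFs these 95% intervals lay between -0.57 and 1.29, and again none of the 5 passed. Between NT-iPSCs and NT-ESCs, 0 of 9 members were called by limma, with 0 at an unadjusted p under 0.05 and 0 with voom weights, where 12.8% of tested miRNAs were called. Members differed there by -0.45 to 0.39.

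**Figure D5:**
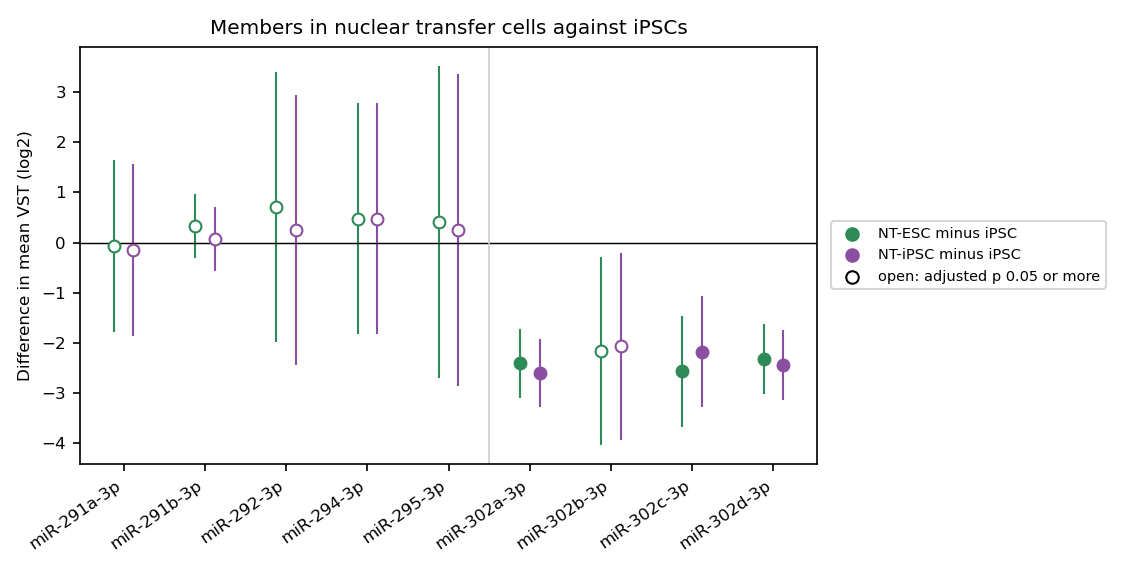
Difference in mean VST from iPSCs (log2 scale) for the 9 members in NT-ESCs and NT-iPSCs, with 95% intervals of the limma fit over all 12 libraries. Filled points have an adjusted p under 0.05. The 4 miR-302 members lie between -2.60 and -2.07 and the 5 miR-290 members between -0.14 and 0.70.

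miRNAs of mesenchymal cells also differed between iPSCs and the nuclear transfer types. The sum of 8 of them (both arms of miR-199a, miR-199b and miR-214, with miR-143-3p and miR-145-5p) was 2.13% to 2.32% of miRNA reads in iPSCs, 6.04% to 6.13% in NT-ESCs and 6.15% to 7.13% in NT-iPSCs, beside 6.5% to 9.9% in MEFs and 4.02% to 4.41% in ESCs. In this sum miR-199a-3p and miR-199b-3p had nearly the same reads (215487 and 215452 in NT-ESC library 71), so they are not separate markers. Counted once, a choice made after seeing the data, the sum was 1.13% to 1.26% in iPSCs, 3.2% to 3.24% in NT-ESCs, 3.28% to 3.74% in NT-iPSCs, 5.78% to 8.85% in MEFs and 3.85% to 4.28% in ESCs. All 7 were then higher in NT-ESCs and in NT-iPSCs than in iPSCs (limma, adjusted p under 0.05), where 12.6% and 13.4% of tested miRNAs were called higher. The sums were made of different markers. In MEFs and ESCs miR-143-3p held most of the sum (4.68% to 7.44% and 3.59% to 4.07% of miRNA reads), and in NT-ESCs it held 0.262% to 0.29%, where miR-199a-3p had 2.85% to 2.89%, above its 0.733% to 1.08% in MEFs. Of the 7, 6 were lower in NT-ESCs and in NT-iPSCs than in MEFs, where 38.1% and 36.3% of tested miRNAs were called lower. Against ESCs 4 of the 7 were lower and 3 higher in both types, where 75.8% (NT-ESCs) and 77.6% (NT-iPSCs) of tested miRNAs were called, 39.8% and 41.1% higher. Of the 8 listed, 7 had at least 10 reads in both iPSC libraries and all 8 did so in every other library. Whether feeder or other fibroblast RNA has a part in the miR-302 difference was not tested. In bulk samples, fewer cells of a type and less RNA per cell cannot be told apart. The 4 miR-290 cluster markers summed to 9.46% to 12.2% of miRNA reads in the iPSC libraries, with 11.2% in both NT-ESC libraries and 7.22% to 7.77% in the NT-iPSC libraries.

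Other arms of the miR-302 cluster lay on the same side of iPSCs. Of the 5 tested, 2 were lower in NT-ESCs and 3 in NT-iPSCs, where 13.1% of tested miRNAs were called lower in each, with a median difference of -1.89 and -2.13 beside -0.10 and 0.00 over all tested miRNAs. In the fit without MEFs 4 and 3 were lower, where 31.1% and 28.6% of tested miRNAs were called. miR-302b-5p and miR-302c-5p met the read filter only with the iPSC libraries, which favours higher values in iPSCs, so their part in these counts and medians is no separate support. miR-367-3p, the only 3p arm of the cluster outside the family, had 116.9 and 62.33 normalised reads in iPSCs. NT-ESC libraries had 21.5 and 17.51, and NT-iPSC libraries 19.64 and 18.23. Both iPSC libraries were above the rest, and miR-367-3p differed by -2.10 and -2.13 (limma, adjusted p 2.75e-03 and 2.06e-03).

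Among the 14 tested arms of both clusters that are no family member, 8 were higher and 1 lower in the reprogrammed mean than in ESCs (limma), where 44% of tested miRNAs were called higher and 38% lower. Their median difference was 2.31, beside 0.24 over all tested miRNAs. miR-302b-5p, miR-302c-5p and miR-302d-5p, all counted as higher, met the read filter only through reprogrammed libraries, which favours that direction. Among the 9 arms of the miR-290 cluster, for which the ESC libraries met the filter too, 4 were higher and 1 lower, with a median of 0.92. The arm that fell was miR-292-5p, by 2.80 on the log2 scale (SE 1.14, adjusted p = 0.0404). The highest were miR-302b-5p, whose ESC libraries had 0 reads, and miR-294-5p, at 4.41 (SE 0.14, adjusted p = 1.27e-10).

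Apart from the members, 2 miRNAs had AAGUGC at bases 2 to 7 among the 807 of the 1042 deposited miRNAs with a RefSeq sequence. miR-290-3p had 292.4, 294.6 and 302.5 normalised reads in ESCs, 222.7 and 266.9 in iPSCs, and 359.3 to 468.2 in the nuclear transfer libraries, with no read in MEFs. Its difference between the reprogrammed mean and ESCs was 0.22 (SE 0.16, limma, adjusted p = 0.23). Its sequence differs from the main seed at base 8.
miR-290-3p: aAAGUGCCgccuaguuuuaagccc
miR-350-5p was present in MEFs too, with 33 to 44 reads in the MEF libraries and 15 to 42 in the others. It was higher in MEFs than in ESCs by 1.08 (SE 0.27, limma, adjusted p = 3.48e-03), the opposite side from the members.

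The miR-17 seed family holds the same hexamer 1 base further from its 5′ end and is likewise known as a promoter of cell cycle progression. Its 6 members (miR-17-5p, miR-20a-5p, miR-20b-5p, miR-93-5p, miR-106a-5p and miR-106b-5p) were all lower in reprogrammed cells than in ESCs (limma, 38% of tested miRNAs called lower), with log2 differences from -4.88 to -3.01 and a median of -3.27 beside 0.24 over all tested miRNAs. miR-20a-5p had 46516, 53618 and 50647 normalised reads in ESCs and 878.5 to 2535 in the reprogrammed libraries. Between NT-ESCs and iPSCs 4 of the 6 were higher in NT-ESCs, where 12.6% of tested miRNAs were called higher. Their differences between NT-iPSCs and iPSCs ran from -0.365 to 0.359 and did not pass, where 26.5% of tested miRNAs were called.

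By cell type, the order of the levels differed from member to member. miR-291a-3p ran from ESCs down to iPSCs, NT-ESCs and NT-iPSCs, of which the last 3 did not differ by the test. miR-294-3p was highest in NT-iPSCs and NT-ESCs (124380 ± 30139 and 123102 ± 11544 normalised reads, SD, n = 2), then iPSCs (90812 ± 30340, SD, n = 2) and ESCs (17393 ± 2855, SD, n = 3), again with no difference called among the reprogrammed types. miR-302a-3p and miR-302d-3p ran from iPSCs to NT-ESCs, NT-iPSCs and ESCs, the neighbours NT-ESCs and NT-iPSCs not differing. miR-302b-3p ran from ESCs and iPSCs, not separated by the test with or without MEFs, to NT-iPSCs and NT-ESCs, and the step from iPSCs to these did not pass on the deposited values of all 12 libraries and passed without MEFs. miR-292-3p ran from NT-ESCs to NT-iPSCs, iPSCs and ESCs, with no neighbours separated by the test on all 12 libraries and the step from iPSCs to ESCs passing without MEFs. miR-295-3p ran from ESCs to NT-ESCs, NT-iPSCs and iPSCs, with no neighbours separated by the test with or without MEFs.

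The miRNAs whose pattern was most like each summed group were listed as a description over the 9 pluripotent libraries, among the 501 other miRNAs that reached 100 reads in 2 or more libraries. For the summed miR-290 members these were miR-191-5p (Pearson r 0.859), miR-383-5p (0.856) and miR-26b-5p (0.820). For the summed miR-302 members they were miR-770-3p (Pearson r 0.868), miR-494-3p (0.808) and miR-466k (0.806). The 9 points fall into 4 cell types with shared lines and size factors, so no p is given.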

How the data were processed

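Small RNA libraries of 5 mouse cell types were sequenced. Per the study's methods, the authors removed adaptors and low quality tags, annotated the reads to miRNAs, and deposited for 12 libraries the log2 scale values of the variance stabilizing transformation (VST) of DESeq. The submitters' processing notes list the build mm8. How multiply matching reads were assigned is not given in the sources used here.

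The transformation was inverted, and 100% of nonzero values gave whole reads within 0.05 read. limma (3.58.1, R 4.3.3) was run on the deposited log2 values of the 732 miRNAs that reached 10 reads in 2 or more libraries, with 5 group means and a trended variance, adjusted by Benjamini-Hochberg at 0.05. The same fit was made on the VST of the 3p arm minus the 5p arm for 263 hairpins. At high levels the VST is the log2 of normalised reads plus 2.11, and it flattens toward 0.586 at 0 reads, which understates changes of low miRNAs. Floors cover counting error only. The procedure was tested on simulated data. Replicates were not copies of each other: the chi-square per degree of freedom between replicates was 46.4 or more.

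Alternatives covered scaling, read filters, the test and each library left out. All 9 members, the arms of their hairpins and the lists given above were named by rule, and members and lists were chosen with earlier results of these data known. Sequences are from RefSeq, with 7 of 9 members matched.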

Additional observations from a re-analysis of the deposited data

Results flagged for a closer look

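For 3 members the iPSCs differed from the nuclear transfer cells, by a test of the difference itself (limma, Benjamini-Hochberg adjusted p under 0.05). For NT-ESCs against iPSCs the log2 differences were -2.40 for miR-302a-3p, -2.57 for miR-302c-3p and -2.33 for miR-302d-3p. For NT-iPSCs against iPSCs they were -2.60, -2.18 and -2.45. In each comparison both nuclear transfer libraries lay below both iPSC libraries. miR-302c-3p rests on 6 to 69 reads per library there. The mesenchymal miRNAs also differed between these types, and their part in the difference was not tested. Groups held 2 or 3 libraries, so no check for a library far from its group was made.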

How the results depend on the processing

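No paired analysis was possible because the groups share no replicate number. Of 2682 member and arm differences under alternatives, 2516 kept their direction and side of the threshold, 90 newly passed, 48 no longer passed and 28 reversed. None of the differences past the threshold in the reported fit was among the reversed. Scaling moved the median of all tested miRNAs, so changes are relative to it. With total read scaling it went from 0.00 to -0.80 for MEFs against ESCs and from 0.00 to -0.51 for NT-iPSCs against iPSCs. For iPSCs against MEFs it went from 0.464 to 1.76, and for NT-ESCs against MEFs from 0.325 to 1.22. With MEFs in the fit, where these members had few reads, the SEs of miR-291a-3p, miR-292-3p, miR-294-3p, miR-295-3p and miR-302b-3p were larger than without, and 2 or 3 libraries per type limit every comparison. The causes of the changes below were not tested, other than that an alternative with fewer libraries has fewer to estimate the spread from.

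Leaving out each library in turn, the number of members called against ESCs ranged from 5 to 7 for iPSCs, 4 to 7 for NT-ESCs and 3 to 7 for NT-iPSCs, with 3 without NT-iPSC library 52. Against iPSCs it ranged from 3 to 5 for NT-ESCs, with 5 without MEF library 13, and from 2 to 4 for NT-iPSCs. With only the groups compared in the fit, 8 members were called for iPSCs against ESCs, where 6 were called in all 12 libraries. Member hairpins with a changed arm balance against ESCs numbered 7, 8 and 7 for iPSCs, NT-ESCs and NT-iPSCs in the 9 pluripotent libraries alone, a fit added after seeing the data, and 8 and 7 for NT-ESCs and NT-iPSCs with only the groups compared.

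With the 10 most abundant other miRNAs left out, the family's share of reads was 0.00054% for MEFs, 7.32% for ESCs, 8.25% for iPSCs, 10.6% for NT-ESCs and 8.57% for NT-iPSCs. Without miR-292-3p and miR-302c-3p, in the order iPSCs, NT-ESCs and NT-iPSCs, that share was 4.59%, 4.69% and 3.95%, the miR-302 part of family reads 1.36%, 0.208% and 0.207%, and the miR-294-3p part 46.6%, 49% and 51.6%.

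The reversed differences were small ones. Total read scaling gave 0.091 for miR-302b-3p (iPSCs against ESCs), -0.036 for miR-291b-3p (NT-ESCs against iPSCs) and, for NT-iPSCs against iPSCs, -0.469 for miR-291b-3p, -0.288 for miR-292-3p, -0.071 for miR-294-3p and -0.286 for miR-295-3p. Upper quartile scaling gave 0.138 for miR-295-3p (NT-ESCs against ESCs), 0.007 for miR-291a-3p (NT-ESCs against iPSCs) and 0.041 for the arm difference of miR-302d (NT-ESCs against ESCs), which was 0.107 on the log2 scale of normalised reads plus 1. Trimmed mean scaling gave -0.057 for miR-302c-3p in the reprogrammed mean against ESCs.

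With each library left out in turn, that miR-302c-3p difference ranged from -0.173 to 0.384. For NT-ESCs against iPSCs miR-291a-3p ranged from -0.220 to 0.087 and miR-291b-3p from -0.075 to 0.725. For NT-iPSCs against iPSCs the ranges were -0.309 to 0.026 for miR-291a-3p, -0.326 to 0.475 for miR-291b-3p, -0.035 to 0.548 for miR-292-3p and -0.031 to 0.546 for miR-295-3p. The arm difference of miR-302d against ESCs ranged from -0.080 to 0.304 for iPSCs, -0.239 to 0.146 for NT-ESCs, -0.145 to 0.513 for NT-iPSCs and -0.123 to 0.261 for the reprogrammed mean.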
